A study of Mus musculus with 20 samples.

Results

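The cytosolic ribosomal protein genes were taken as the genes whose symbol begins with Rpl, Rps or Rplp, followed by a number and at most one of the letters a, x or l, and whose mean normalized count over all libraries was at least 10. This pattern leaves out the Rps6k kinases and numbered pseudogenes, and 73 of the 17101 genes in the table met both conditions. They were 30 genes of the small subunit, 40 of the large subunit and the 3 genes of the stalk (Rplp0, Rplp1 and Rplp2). 2 more genes had a matching symbol but a lower mean: Rpl26, at a mean of 2.99, and Rpl3l, at 0.274. The member nearest to the minimum was Rpl39l, at a mean of 46.3. X-linked ribosomal protein genes such as Rps4x, Rpl10, Rpl36a and Rpl39 were not analysed here.

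Ribosomal proteins are made in close to equal numbers and are assembled with ribosomal RNA in the nucleolus into the small subunit, which reads the mRNA, and the large subunit, which joins amino acids. The stalk is the arm of the large subunit that recruits elongation factors. In mammals their mRNAs start with a C followed by a run of pyrimidines, the terminal oligopyrimidine (TOP) tract, through which the mTORC1 kinase sets how strongly they are translated. T cells enlarge their ribosome pool when they are activated.

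RNA-Seq was performed on donor T cells sorted from the spleen on day +10 after allogeneic bone marrow transplantation from B6 donors into irradiated F1 mice. KO donors carried 2loxP Dnmt3a alleles and a Cre driven by the Cd4 promoter, so that the gene was deleted in T cells, and WT donors were littermates. Donors were 6 to 12 weeks and recipients 8 to 12 weeks old. KO mice gave CD4+, CD8+ and CD4+CD8+ double-positive (DP) cells and WT mice CD4+ and CD8+ cells, with 4 libraries for each of the 5 groups and 20 in all. DP cells of WT mice were not analysed here. KO libraries carried the replicate numbers 1 to 4, and WT libraries the numbers 2, 3, 5 and 6.

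Between 37547651 and 46966318 reads fell on genes in each library. The normalized count of Dnmt3a was 650 to 2007 in the 12 KO libraries and 3542 to 5171 in the 8 WT libraries, without overlap; the values cover the whole gene, including exons outside the deleted part. The coreceptor genes followed the sort, with Cd8a at 3771 in KO CD4+ replicate 1 and at no more than 586 in the other CD4+ libraries. KO DP replicate 3 stood apart, with reads on 11783 genes against 13203 to 14677 in the other libraries, and the medians and named differences of DP cells are given with and without it. Genes with reads also separated the genotypes, with 11783 to 14198 in KO and 14421 to 14677 in WT libraries.

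Promoter windows of 300 bases around the annotated start were given by RefSeq (GRCm38.p6) for 52 of the 73 genes. In 13 of these 52 genes a window began with a C at the annotated first base and had at least 4 further C or T bases after it, the start of a TOP mRNA. This held for 20.6% of the 63 windows of the members and for 2.51% of all 32851 windows. The windows of 6 such genes are shown because they carry the tract that this gene family is known for, and those of Rps27l and Rpl39l because these genes moved apart from the rest in the comparisons that follow. Each runs 5′ to 3′ on the strand of the gene, from 15 bases before the annotated first base through the first 15 bases of the transcript, and capitals mark the unbroken run of C and T that holds the first base.
Rplp2, chr7:141447636-141447665, plus strand: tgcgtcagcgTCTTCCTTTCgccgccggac
Rps6, chr4:86857353-86857382, minus strand: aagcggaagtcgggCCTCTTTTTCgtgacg
Rps10, chr17:27635230-27635259, minus strand: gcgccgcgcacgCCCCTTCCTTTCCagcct
Rps18, chr17:33955651-33955680, minus strand: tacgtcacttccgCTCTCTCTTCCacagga
Rpl28, chr7:4792950-4792979, plus strand: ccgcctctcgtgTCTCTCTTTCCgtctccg
Rpl35, chr2:39005117-39005146, minus strand: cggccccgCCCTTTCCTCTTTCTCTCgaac
Rps27l, chr9:66946071-66946100, plus strand: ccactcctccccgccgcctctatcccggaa
Rpl39l, chr16:10170213-10170242, plus strand: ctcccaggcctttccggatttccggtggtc

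The pyrimidine run across the start was 10 to 18 bases long in the 6 TOP windows, the longest in Rpl35. The window shown for Rps27l, one of those that RefSeq gives for it, and that of Rpl39l have G at the annotated first base and so no such run. A run of at least 10 C or T bases between 20 bases before and 50 bases after the start was found in 36 of the 52 genes (58.7% of their windows against 12.0% of all windows). The letters CTTTCC on the strand of the gene were found in the same stretch in 16 of the 52 genes (27.0% of their windows against 3.24% of all), partly within those runs. CGGAAG, which contains the core letters of Ets-family sites, occurred on either strand in 36 of the 52 genes. It lay in 61.9% of their windows, in 16.9% of all windows and in 30.7% of the windows of genes with a mean of at least 10. TATAAA within 50 bases before the start was found in 0 of the 52 genes and in 2.63% of all windows. These are matches of letters only.

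The ribosomal protein genes were among the most abundant transcripts of these T cells. The mean normalized count was over 10000 for 67 of the 73 genes, and they made up 34 of the 100 genes with the highest mean. Per 1000 exon bases the highest means were 148320 for Rplp1, 141183 for Rpl13a, 132742 for Rps14 and 121922 for Rplp0. Rps27l, a paralog of Rps27 known as a target of p53, had 1506 per 1000 exon bases, and the other 5 low members lay between 53.8 (Rpl39l) and 587 (Rpl34). Rps27, Rpl30 and Rpl34 belong to these low members although they encode core subunits. None of their exon bases overlapped another annotated gene. Ribosomal protein genes have many processed pseudogenes, and reads that match both a gene and a copy can be lost or split, so the values of these 3 genes and of the paralogs Rps4l and Rpl39l are uncertain; this was not tested. The members had short transcripts, with a median exon length of 833 bases against 3222.5 for all 16300 genes matched to RefSeq, and they lay on 18 chromosomes.

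Summed over the 73 genes, the share of all normalized counts was lowest in WT CD8+ libraries, at 6.18, 6.41, 6.6 and 6.63% (replicates 2, 3, 5 and 6). In WT CD4+ libraries it was 7.25, 7.43, 7.06 and 7.02%. In KO CD8+ libraries it was 8.13, 6.71, 7.31 and 8.67% (replicates 1 to 4). KO CD4+ libraries had 8.75, 6.83, 8.40 and 10.5%, and KO DP libraries had 8.21, 7.54, 15.8 and 9.48%. All KO CD8+ libraries were above all WT CD8+ libraries, whereas KO CD4+ replicate 2 was below every WT CD4+ library. The means were 6.46% ± 0.206 in WT CD8+ libraries, 7.19% ± 0.188 in those of WT CD4+ cells, 7.71% ± 0.868 in KO CD8+, 8.62% ± 1.5 in KO CD4+ and 10.3% ± 3.80 in KO DP (SD, n = 4). Without replicate 3 the KO DP mean was 8.41% ± 0.987 (SD, n = 3), below that of KO CD4+ libraries.

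**Figure D1:**
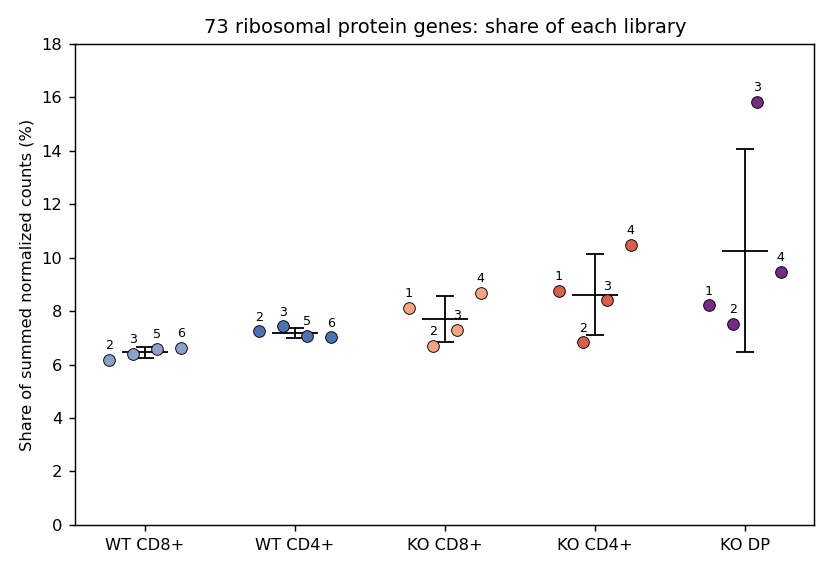
Share of the summed normalized counts (percent, y axis) taken by the 73 ribosomal protein genes in each library, by group; points are libraries with their replicate number, and bars show the mean and SD of 4 libraries. WT libraries lie between 6.18 and 7.43%, and KO libraries spread from 6.71% to 15.8%, the value of KO DP replicate 3.

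The genes moved together across the libraries of KO mice and, with a smaller spread, of WT CD8+ cells. KO CD4+ replicate 4 had the highest value of its group for 68 of the 73 genes and replicate 2 the lowest for 69. Among KO CD8+ libraries, replicate 4 was highest for 57 genes and replicate 2 lowest for 60. In KO DP cells replicate 3 was highest for 71 genes and replicate 2 lowest for 56. Among WT CD8+ libraries, replicate 6 was highest for 45 genes and replicate 2 lowest for 60. For WT CD4+ libraries, replicate 3 was highest for 36 and replicate 6 lowest for 44. The median SD on the log2 scale over the 67 abundant members was 0.267 in KO CD4+ and 0.150 in KO CD8+ libraries. It was smaller in WT cells, at 0.0558 for CD4+ and 0.0577 for CD8+ libraries. For the 781 other genes with a mean over 10000 the median SD was 0.167 in KO CD4+ and 0.0798 in WT CD4+ libraries. In KO CD8+ libraries the other genes had the larger value, 0.170, and in WT CD8+ libraries the smaller, 0.0518.

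The balance between the subunits varied less. The summed small subunit genes divided by the summed large subunit and stalk genes gave ratios of 0.610 to 0.628 in KO CD4+ and 0.616 to 0.623 in KO CD8+ libraries. In WT mice the ratios were 0.620 to 0.640 for CD4+ and 0.622 to 0.632 for CD8+ libraries. KO DP libraries had 0.612, 0.622 and 0.624 in replicates 1, 2 and 4, and 0.716 in replicate 3.

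**Figure D2:**
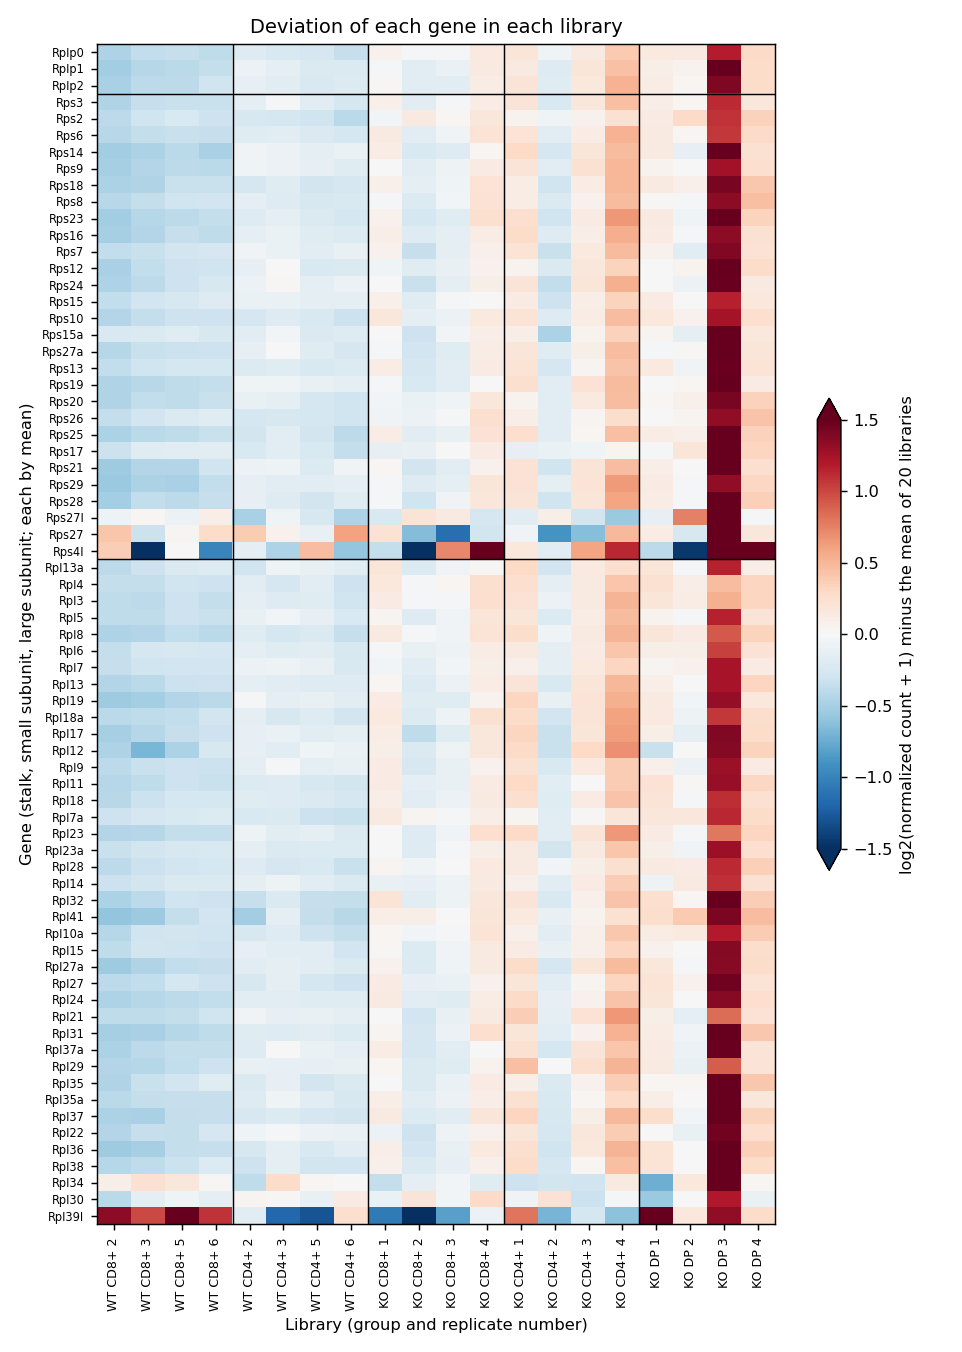
Log2(normalized count + 1) of 71 ribosomal protein genes (y axis, stalk, small and large subunit, each ordered by mean) in each library (x axis) minus its mean over the 20 libraries; colors are capped at 1.5 above and below. WT libraries are mostly below the mean, KO DP replicate 3 is the highest library for 69 of the 71 genes, and Rps27l, Rps27, Rps4l, Rpl34, Rpl30 and Rpl39l differ from the common pattern.

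KO and WT CD8+ cells were compared first, to ask which ribosomal protein genes differ when donor CD8+ T cells lack Dnmt3a. Of the 73 genes, 56 were higher in KO (limma, adjusted p under 0.05) and 1, Rpl39l, was lower; of all genes tested, 25.2% were called in either direction, 12.6% higher and 12.5% lower. The median log2 fold change was 0.34 over the 73 genes and -0.04 over all 12383 genes, and 69 of the 73 values were positive. KO and WT libraries did not overlap for 59 genes that were higher and 2 that were lower in KO, where 15.2% and 15.5% of all genes did so, 30.6% together. By subunit, 21 of 30 small subunit, 32 of 40 large subunit and 3 of 3 stalk genes rose. Whether cells held more of these mRNAs or made up a different mixture of cell states cannot be told apart in bulk samples.

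The rises depended on how the libraries were scaled. With the 75th percentile of every library set equal, 11 genes were called higher and 2 lower in KO, where 5.56% of all genes were higher and 18.2% lower. With quantile normalization 4 were higher and 1 lower, where 12.5% of all genes were higher and 10.6% lower. The 75th percentile scaling moved the median of all genes from -0.04 to -0.15, and the median of the 73 genes was then 0.23; under quantile normalization it was 0.15 against 0.01 for all genes. Most members kept a positive value, 69 and 65 of 73. The number called was 23, 26, 34 or 37 when WT CD8+ replicate 2, 3, 5 or 6 was left out. Of all genes, 14.2, 13.8, 13.8 and 13.2% were then called in either direction, against 25.2% with all libraries.

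The stalk genes rose in KO CD8+ cells. Rplp0 (chr5:115559467-115563729), the base of the stalk, had normalized counts of 167304, 158039, 157592 and 176358 in KO CD8+ libraries and 116109, 123745, 126304 and 123202 in WT CD8+ libraries. Every KO library was above every WT library. The log2 fold change was 0.43 (SE 0.084, adjusted p = 0.00748). Rplp1 and Rplp2, the acidic proteins that bind to it, had log2 fold changes of 0.39 (adjusted p = 0.0108) and 0.34 (adjusted p = 0.0164).

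The largest rise was in Rpl41 (chr10:128548110-128549168), which encodes the smallest ribosomal protein. Its normalized counts were 44062, 43621, 41046 and 46690 in KO CD8+ and 27312, 28218, 32002 and 33662 in WT CD8+ libraries. The groups were well separated, and the log2 fold change was 0.54 (SE 0.086, adjusted p = 0.00353). Rpl8 (0.49, adjusted p = 0.00426), Rpl12 (0.46, adjusted p = 0.0187) and Rpl3 (0.44, adjusted p = 0.00748), all of the large subunit, were also among the 5 largest rises on the log2 scale.

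Genes with known roles beyond the ribosome were looked at as a set. Rpl5 and Rpl11, which bind Mdm2 when ribosome assembly fails, rose by 0.34 (adjusted p = 0.0227) and by 0.36 (adjusted p = 0.0163). Rps6, the substrate of S6 kinase, had 0.39 (adjusted p = 0.0168). Rps3, which also acts with NF-kB, had 0.37 (adjusted p = 0.0143). Rps14 and Rps19, genes of the 5q- syndrome and of Diamond-Blackfan anemia, had 0.41 (adjusted p = 0.0134) and 0.30 (adjusted p = 0.0163). All of these rose without overlap between the groups. Rpl22, which is needed for alpha-beta T cell development, was at 13602 to 17541 in KO and 12407 to 14093 in WT, and did not pass the threshold (0.25, adjusted p = 0.0577). Rpl13a, known for a translational silencing complex, did not pass it either (0.26, adjusted p = 0.0904). Rpl4, one of the 3 members with the highest mean, rose by 0.43 on the log2 scale (adjusted p = 0.00796).

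Rpl39l, a paralog of Rpl39 best known from the testis, went the other way in CD8+ cells. Its normalized counts were 15, 1.03, 17.9 and 30.3 in KO CD8+ and 83.7, 65.2, 155 and 69.5 in WT CD8+ libraries. All KO values were below all WT values, at low counts. The log2 fold change was -2.91 (SE 0.78, adjusted p = 0.025), and it was -2.07 without KO CD8+ replicate 2. The adjusted p was 0.0558 to 0.0783 when any one WT CD8+ library was left out. Rps27l had 3268, 4381, 4214 and 3216 in KO and 3631, 3930, 3626 and 4126 in WT, a difference of -0.03 (adjusted p = 0.847). Its parent Rps27 had 109, 59.7, 42.6 and 77.7 in KO and 126, 74.8, 97.1 and 114 in WT (-0.56, adjusted p = 0.234). Rps4l ranged from 7.21 to 158 in KO and from 14.4 to 61.1 in WT (0.45, adjusted p = 0.72), so that its groups overlapped widely.

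In CD4+ cells the same comparison gave fewer calls. Of the 73 genes, 14 were higher in KO and 0 were lower, where 18.4% of all genes were called in either direction, 8.59% higher and 9.77% lower. At an unadjusted p under 0.05 there were 50 of 73, against 36.4% of all genes. With edgeR 22 were called, where 18.3% of all genes were, and with DESeq2 47, where 25% were. The median log2 fold change was 0.34 over the 73 genes and -0.05 over all 12391 genes, and 70 values were positive. KO and WT libraries did not overlap for 20 genes, all higher in KO, where 12.3% of all genes were higher and 13.3% lower without overlap, 25.6% together. The genes that rose were 6 of 30 in the small subunit, 7 of 40 in the large subunit and 1 of 3 in the stalk.

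KO CD4+ replicate 2 decided much of this count. Without it 66 genes were called higher, where 9.73% of all genes were, and the median was 0.43. Without KO CD4+ replicate 1, 3 or 4 the count was 2, 8 or 6, and without WT CD4+ replicate 2, 3, 5 or 6 it was 2, 1, 0 or 0. Of all genes, 4.71, 10.8 and 7.54% were called higher without these KO libraries. Without these WT libraries 3.98, 3.56, 3.81 and 2.39% of all genes were. With the 75th percentile of the libraries set equal, or with quantile normalization, 0 members were called. Of all genes, 3.83% and 9.06% were then called higher, and the members' medians were 0.22 and 0.13. At an unadjusted p under 0.05 (limma) there were 13 and 8 members, against 38.2% and 35.1% of all genes.

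Rpl8 (chr15:76904071-76906318) had the largest rise in CD4+ cells among genes past the threshold. Its normalized counts were 92682, 73410, 84459 and 109078 in KO CD4+ and 67903, 64189, 66013 and 60736 in WT CD4+ libraries. The groups did not overlap, and the log2 fold change was 0.46 (SE 0.12, adjusted p = 0.0312). Rpl41 was at 45325, 38141, 42523 and 48032 in KO and 28610, 37549, 32040 and 30825 in WT (log2 fold change 0.43, adjusted p = 0.023). Rpl32 (0.43, adjusted p = 0.041) and Rps25 (0.42, adjusted p = 0.0399), which is needed for translation from some viral entry sites, followed. For Rpl32, KO CD4+ replicate 2 (36614) was below WT CD4+ replicate 3 (37042).

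Rplp0 was the stalk gene that rose in CD4+ cells, with counts of 180811, 153535, 175393 and 210152 in KO and 140407, 136188, 134337 and 126031 in WT (log2 fold change 0.41, SE 0.12, adjusted p = 0.0438). Rplp1 (0.31, adjusted p = 0.112) and Rplp2 (0.36, adjusted p = 0.0768) did not pass the threshold. KO CD4+ replicate 2 overlapped the WT range for both. Rpl3 (0.40, adjusted p = 0.0558), Rpl4 (0.39, adjusted p = 0.058), Rpl11 (0.36, adjusted p = 0.0637) and Rps6 (0.38, adjusted p = 0.0745) were above every WT library in all 4 KO libraries but missed the threshold. Rpl5 (0.27, adjusted p = 0.187), Rps3 (0.29, adjusted p = 0.168), Rps14 (0.28, adjusted p = 0.188), Rps19 (0.29, adjusted p = 0.12), Rpl13a (0.27, adjusted p = 0.204) and Rpl22 (0.19, adjusted p = 0.268) overlapped between the groups.

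The members with low counts differed most from the median in CD4+ cells. Rps27 had 90.8, 50.1, 60.2 and 133 in KO CD4+ and 123, 98.1, 87.4 and 143 in WT CD4+ libraries (-0.51, adjusted p = 0.305). Rpl34 had 309, 315, 310 and 418 in KO and 292, 462, 389 and 380 in WT (-0.16, adjusted p = 0.534). Rps4l had 52.6, 42.2, 71.6 and 104 in KO and 42.3, 33.9, 65.1 and 31.2 in WT (0.61, adjusted p = 0.274). None of the 3 passed the threshold, and their groups overlapped. Rpl39l had 57.4, 19.6, 26.7 and 20.9 in KO and 29, 13.8, 12.6 and 38.6 in WT (0.40, adjusted p = 0.602). Rps27l ranged from 2600 to 4090 in KO and from 2741 to 3664 in WT (0.08, adjusted p = 0.686).

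**Figure D3:**
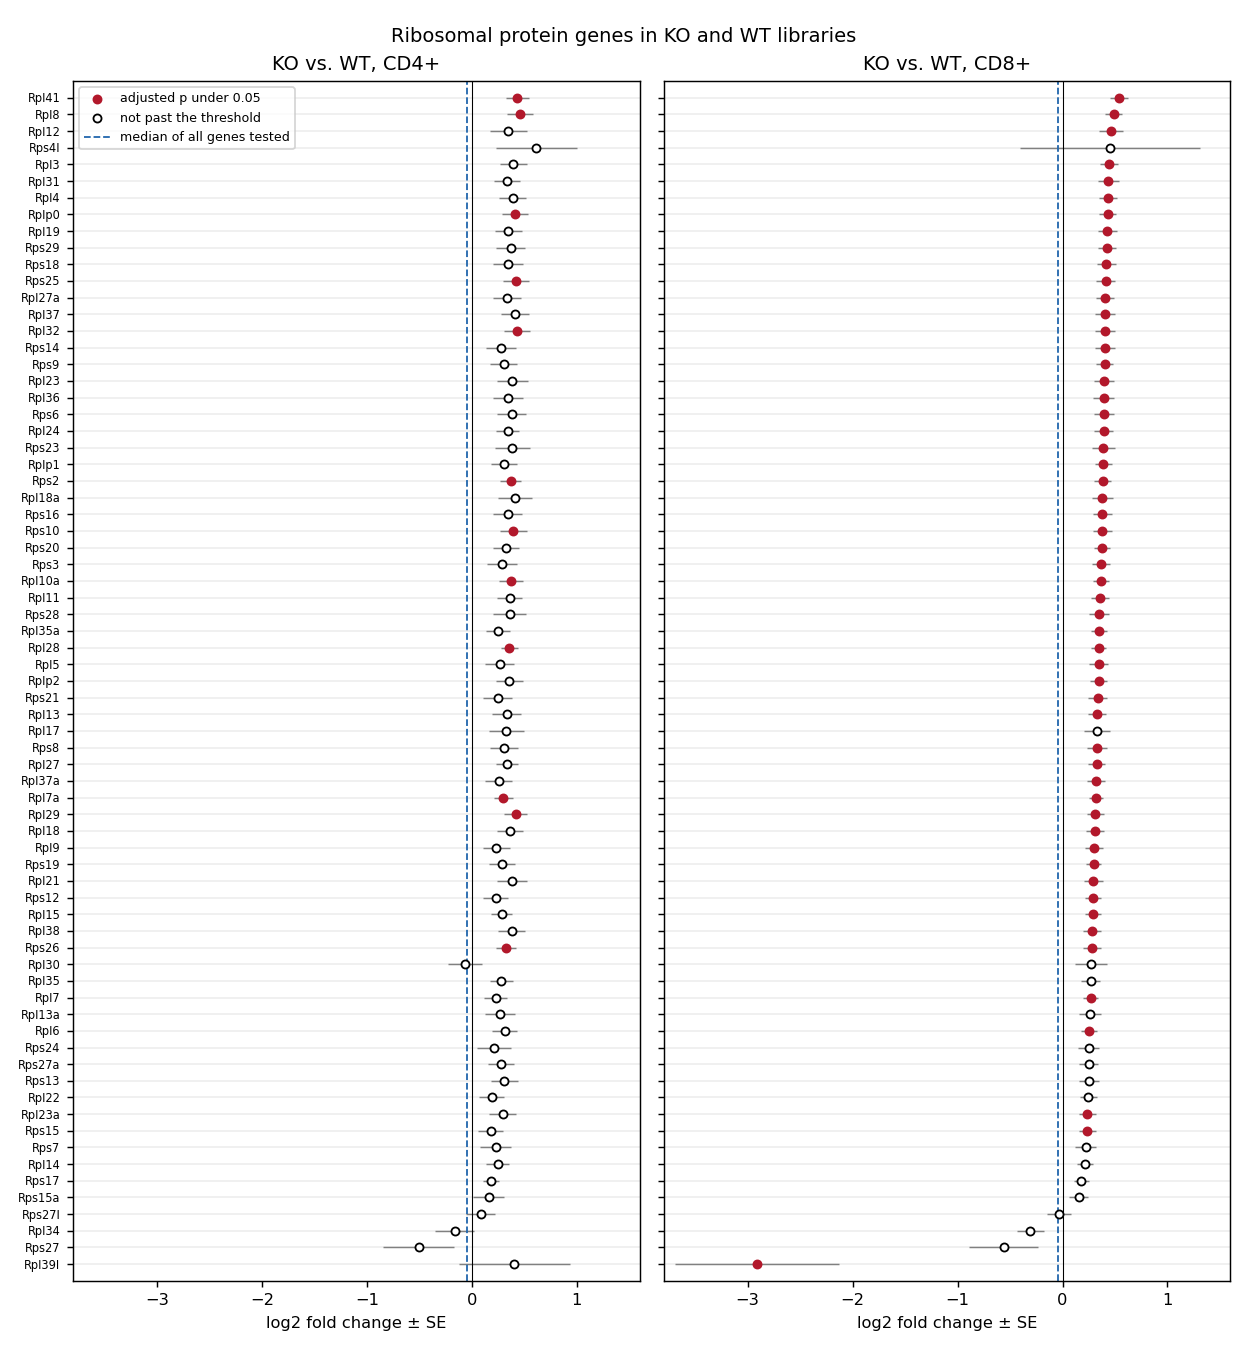
Log2 fold change of 71 ribosomal protein genes in KO over WT libraries (x axis, point and SE) in CD4+ cells (left) and CD8+ cells (right), genes ordered by the value in CD8+ cells; filled points pass an adjusted p of 0.05 and the dashed line is the median of all genes tested. Of the genes shown, 12 pass in CD4+ and 55 in CD8+ cells, and Rpl39l stands apart at -2.91 in CD8+ cells.

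Whether the KO difference itself differed between CD8+ and CD4+ cells was tested as an interaction over 16 libraries. It was called for 0 of the 73 genes and for 0.0161% of all genes tested. Neither edgeR nor DESeq2 called any member, where they called 0.00803% and 0.169% of all genes. At an unadjusted p under 0.05 (limma) there was 1 gene among the members, against 6.37% of all genes. The median of the difference between the KO effects was 0.01 on the log2 scale, and 39 values were positive. The gene was Rpl39l, for which the KO effect in CD8+ minus that in CD4+ cells was -3.31 (adjusted p = 0.473).

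Other measures moved with genotype. Of 7 genes of stress and handling, such as the heat shock gene Hspa1a and the immediate early gene Fos, 6 were lower in KO in each subset. Their summed normalized count was 2898 to 7783 in KO CD4+ against 15766 to 43488 in WT CD4+ libraries, and 1207 to 3606 in KO CD8+ against 10016 to 24806 in WT CD8+ libraries. The nuclear-retained RNA Malat1 was at 6901 to 10124 in KO CD4+ libraries and at 24971 to 54049 in those of WT CD4+ cells. In CD8+ cells its ranges overlapped, at 7503 to 22537 in KO and 19753 to 31241 in WT libraries. Neat1, from the same list, did not overlap there, at 2049 to 4634 in KO CD8+ and 10890.5 to 13261 in WT CD8+ libraries. Of the 3 nuclear-retained RNAs tested in CD8+ cells, 2 were called lower, where 12.5% of all genes were, and 1 had a positive value. Summed markers of B cells were at 1719 to 2751 in KO CD8+ and 417 to 541 in WT CD8+ libraries, mostly from Cd79b and Cd22, while Ms4a1 stayed at or below 1.85 there. For CD4+ cells these sums overlapped, at 1650 to 2162 in KO and 1255 to 1681 in WT libraries. Within them Cd79b did not overlap, at 581 to 1073 in KO CD4+ and 40.1 to 82.6 in WT CD4+ libraries. Its log2 fold change was 3.72 (limma, adjusted p = 0.00022). Of the 3 B cell markers tested in CD4+ cells, 2 were called higher, where 8.59% of all genes were, and 1 had a negative value. The 100 genes with the highest counts took 20.1 to 27.9% of KO and 18.6 to 19.7% of WT libraries. This share is not separate from that of the members, which made up 34 of the 100 genes with the highest mean. Of 9 neutrophil and myeloid markers, 8 had negative values in each subset (medians -3.03 in CD4+ and -2.65 in CD8+ cells; 2 and 1 passed the threshold). All 3 erythroid markers tested had negative values (medians -2.70 and -3.12), and all 10 pancreatic acinar markers had positive ones (medians 1.06 and 1.56); 0 of these passed, with 3 and 1 erythroid and 3 and 4 acinar markers at an unadjusted p under 0.05 by limma. The part of these differences in the rise of the ribosomal protein genes was not tested.

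WT CD4+ and WT CD8+ libraries were compared to ask how the genes differ between alloreactive subsets with intact Dnmt3a. In WT CD4+ cells 43 of the 73 genes were higher and 2 were lower, where 44.5% of all genes tested were called, 22.3% being higher and 22.2% lower. The median log2 fold change was 0.17 for the 73 genes and -0.01 for all genes, and 67 values were positive. The libraries did not overlap for 47 genes that were higher and 1 that was lower in WT CD4+ cells, against 21% and 20.8% of all genes, 41.8% together. Among the genes that rose were 18 of 30 in the small subunit, 23 of 40 in the large subunit and 2 of 3 in the stalk. The scaling of the libraries changed this little, with 43 called under quantile normalization and 45 with equal 75th percentiles. When all 20 libraries shared one estimate of the spread, 0 were called, where 12.8% of all genes were. At an unadjusted p under 0.05 that fit had 1 member, against 25% of all genes. Leaving out any one library gave 39 to 52 called genes, where 39.7 to 44.9% of all genes were called.

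Rps14 had the largest rise past the threshold between WT subsets. Its normalized counts were 71632, 70051, 67005 and 69215 in WT CD4+ and 51630, 53442, 56124 and 53038 in WT CD8+ libraries, and the groups were far apart (log2 fold change 0.38, SE 0.046, adjusted p = 2.26e-05). Rpl19 followed with 59301, 54583, 55970 and 53987 against 41764, 42502, 44727 and 45745 (0.36, adjusted p = 6.06e-05). Rpl12 (0.35, adjusted p = 0.00165), Rps29 (0.33, adjusted p = 6.73e-05) and Rps21 (0.32, adjusted p = 0.000309) completed the 5 largest rises. Part of the exon bases of Rpl19 and Rps21 overlaps another annotated gene, on the opposite strand for Rpl19 (29.1%) and on the same strand for Rps21 (13.5%, a microRNA).

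Of the genes with other known roles, Rps19 (0.31, adjusted p = 6.18e-05), Rpl22 (0.28, adjusted p = 0.00028), Rpl5 (0.23, adjusted p = 0.00271), Rps3 (0.22, adjusted p = 0.0071), Rps6 (0.15, adjusted p = 0.0153) and Rpl11 (0.13, adjusted p = 0.0288) were higher in WT CD4+ cells. The stalk genes Rplp1 (0.26, adjusted p = 0.000962) and Rplp2 (0.21, adjusted p = 0.00364) were higher too. Rplp0 had 0.13 (adjusted p = 0.0612), Rpl13a 0.11 (adjusted p = 0.173) and Rpl4 0.10 (adjusted p = 0.113), and these 3 did not pass the threshold. Rpl3 was higher by 0.16 (adjusted p = 0.0204). Rps27 (0.13, adjusted p = 0.669) and Rps4l (0.39, adjusted p = 0.507) overlapped between the subsets.

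Both genes that were lower in WT CD4+ cells were paralogs. Rpl39l had 29, 13.8, 12.6 and 38.6 in WT CD4+ libraries and all 4 were below the WT CD8+ range of 65.2 to 155 (-2.0, SE 0.41, adjusted p = 0.00127). Rps27l had 2741, 3664, 3254 and 2781 in WT CD4+ and 3631, 3930, 3626 and 4126 in WT CD8+ libraries (-0.31, SE 0.085, adjusted p = 0.00967). WT CD4+ replicate 3 was within the WT CD8+ range for Rps27l.

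The same subsets were compared in KO mice. None of the 73 genes was called, against 4.22% of all genes, 2.73% higher and 1.48% lower. At an unadjusted p under 0.05 (limma) there was 1 member, against 15.1% of all genes. Neither edgeR nor DESeq2 called any member, where they called 3.75% and 7.84% of all genes. The libraries did not overlap for 0 members, where 10.1% of all genes did so, 6.18% higher and 3.97% lower. The median log2 fold change was 0.15, and 66 values were positive. Replicate numbers pair the libraries of KO mice, and with the number as a block 8 genes were called higher in KO CD4+ cells: Rpl17, Rpl19, Rpl21, Rpl22, Rpl29, Rps19, Rps27a and Rps29. They made up 11% of the members, where this fit called 10.2% of all genes higher and 8.68% lower, and they were chosen after their values were seen. Rplp0 had a log2 fold change of 0.12 (adjusted p = 0.774), Rps27l of -0.19 (adjusted p = 0.659) and Rpl39l of 1.31 (adjusted p = 0.554).

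The 4 KO DP libraries entered 2 comparisons, against KO CD8+ and against KO CD4+ libraries, which therefore share them. Against KO CD8+ cells, 0 of the 73 genes were called, where 0.00823% of all genes were. At an unadjusted p under 0.05 (limma) there was 1 member, Rpl39l, against 1.95% of all genes. Neither edgeR nor DESeq2 called any member, where they called 0.00823% and 0.0247% of all genes. The libraries did not overlap for 3 genes, Rpl39l, Rpl41 and Rpl7a, all higher in KO DP cells, where 2.7% of all genes did so, 1.13% higher and 1.57% lower. All 73 values were positive with a median of 0.46. Without KO DP replicate 3 the median was 0.15, and 71 values were positive. Against KO CD4+ cells 0 genes were called, where 1.95% of all genes were, 0.682% higher and 1.26% lower. At an unadjusted p under 0.05 (limma) there were 2 members, Rpl41 and Rps27l, against 14.9% of all genes. Neither edgeR nor DESeq2 called any member, where they called 1.58% and 5.98% of all genes. The libraries did not overlap for 1 gene, Rpl41, which was higher in KO DP cells, where 11.2% of all genes did so, 4.44% higher and 6.72% lower. The median was 0.29 with replicate 3 and -0.0049 without it, when 34 of 73 values were positive. Without replicate 3, 0 members were called in either comparison. Of all genes, 0.00824% were then called against KO CD8+ and 2.29% against KO CD4+ cells.

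Among DP libraries, Rplp0 had 176778, 176149, 362328 and 195518, so that replicate 3 was far above the rest. Its log2 fold changes were 0.40 against KO CD8+ (adjusted p = 0.871) and 0.28 against KO CD4+ cells (adjusted p = 0.64), and 0.15 and 0.030 without replicate 3. Rps27l had 3527, 6495, 12874 and 3788, with replicates 2 and 3 high. It differed by 0.63 from KO CD8+ (adjusted p = 0.871) and by 0.82 from KO CD4+ cells (adjusted p = 0.328), and without replicate 3 by 0.25 and 0.44. Rpl39l had 111, 36.3, 83.2 and 39.3 in KO DP cells, all above the KO CD8+ range of 1.03 to 30.3. The difference was 2.38 from KO CD8+ (adjusted p = 0.871) and 1.07 from KO CD4+ cells (adjusted p = 0.395), and without replicate 3 it was 2.23 and 0.92.

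**Figure D4:**
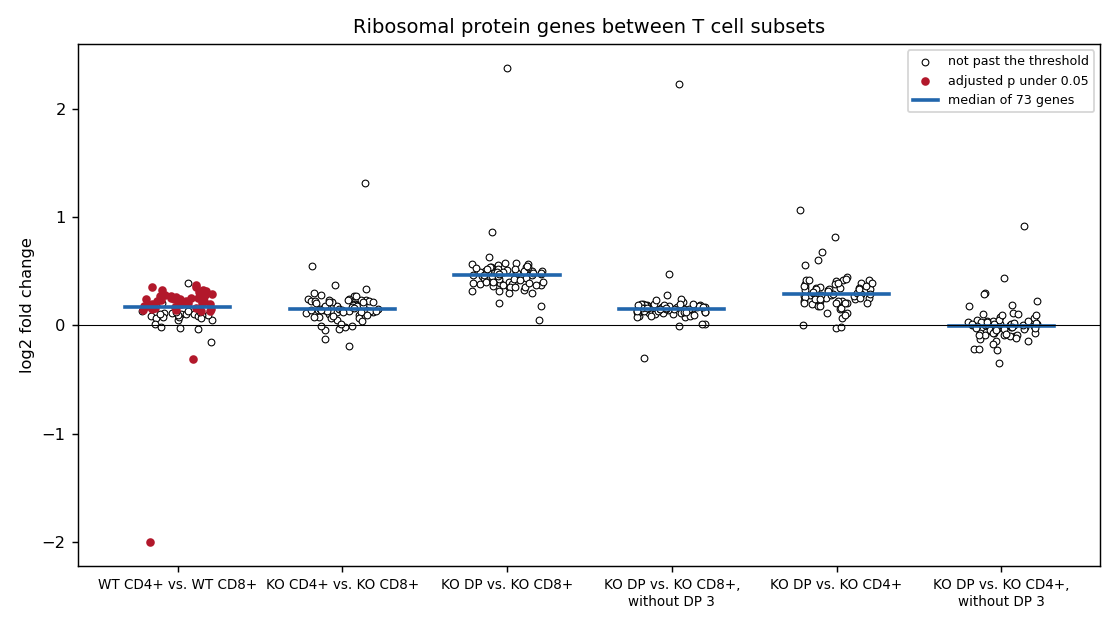
Log2 fold changes of the 73 ribosomal protein genes (points, y axis) in each comparison between T cell subsets (x axis), with the median as a line; filled points pass an adjusted p of 0.05. WT CD4+ over WT CD8+ cells has 45 filled points, and the medians for KO DP cells fall from 0.46 to 0.15 and from 0.29 to -0.0049 when DP replicate 3 is left out.

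In KO DP replicate 3 the ribosomal protein genes rose together with other short transcripts. Its log2 values minus the mean of the other 3 DP libraries had a median of 1.23 over the 73 genes and of 0.00 over all 12158 genes with a mean of at least 10. In 4 classes of exon length with about equal numbers of genes, the medians without the members were 0.54, 0.10, -0.18 and -0.44 from the shortest to the longest, and 67 of the 73 members were in the shortest class, of 53 to 2099 bases. The largest members' deviations were 1.76 for Rpl34 and 1.65 for Rps15a, and the smallest were 0.24 for Rpl4 and 0.33 for Rpl3. The 100 genes with the highest counts, many of them members, took 27.9% of this library, against 18.6 to 22.5% of the others. The part of transcript length in this library's values was not tested further.

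**Figure D5:**
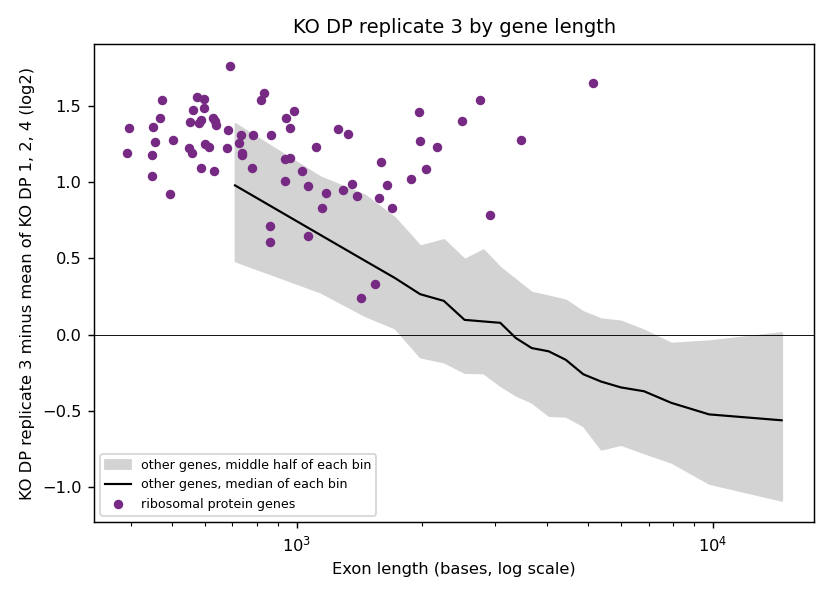
KO DP replicate 3 minus the mean of KO DP replicates 1, 2 and 4 (log2, y axis) against exon length (bases, log scale); points are the 73 ribosomal protein genes, the line is the median and the band the range between the lower and upper quartile of other genes in 20 bins of length. The other genes fall with length, and the members have a median of 1.23.

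Transcript length was looked at in the KO and WT comparisons too. In CD4+ cells the median log2 fold changes of genes other than the members, from the shortest to the longest class, were 0.04, -0.02, -0.06 and -0.12, and in CD8+ cells they were -0.01, -0.06, -0.07 and -0.04. The members' medians of 0.34 and 0.34 lay above those of the shortest class. In WT CD4+ over WT CD8+ cells the shortest class without the members had a median of -0.05 and the members one of 0.17. The shortest class reached 2100 to 2110 bases, whereas the members had a median exon length of 833, so the class is not matched to them in length. The part of transcript length in these differences was not tested.

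Genes with a TOP start in the RefSeq windows were set beside the other members with a window, without a test. In CD8+ cells, 9 of these 13 genes rose with a median of 0.34, and 31 of the 39 other members with a window rose, also with a median of 0.34. For CD4+ cells the counts were 2 of 13 and 7 of 39, and the medians 0.29 and 0.34. Between WT subsets, 6 of 13 and 23 of 39 were higher in CD4+ cells, with medians of 0.13 and 0.20. Of all genes tested, 12.6% were called higher in KO CD8+, 8.59% in KO CD4+ and 22.3% in WT CD4+ over WT CD8+ cells. The split rests on the annotated first base alone, and 36 of the 52 genes had a run of at least 10 C or T bases near the start. It therefore cannot separate members with a TOP mRNA from members without one.

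Other parts of the translation machinery were described by lists of named genes. Of all genes tested, 8.59% were called higher and 9.77% lower in KO CD4+ cells, and 12.6% and 12.5% in KO CD8+ cells. Between WT subsets the shares were 22.3% and 22.2%. The 8 further cytosolic ribosomal protein genes whose symbols fall outside the pattern also moved: 6 of 8 rose in KO CD8+ cells, with Fau, which encodes Rps30, the largest at 0.45 (adjusted p = 0.0118), and 1 of 8 rose in KO CD4+ cells, Rpl36al at 0.24 (adjusted p = 0.0219). Among subunits of eIF3, the scaffold of translation initiation, 6 of 12 rose in KO CD4+ cells (median 0.25), where 8.59% of all genes did, and 9 of 12 in KO CD8+ cells (median 0.32), where 12.6% did, and the largest past the threshold were Eif3c in CD4+ (0.36, adjusted p = 0.0149) and Eif3m in CD8+ cells (0.39, adjusted p = 0.00996). Between WT subsets 4 of 12 were higher in CD4+ cells, with a median of 0.03.

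The elongation list held 9 genes, of which Eef1e1, Eef2k and Tpt1 do not encode elongation factors themselves. Of the 9, 1 rose and 1 fell in KO CD4+ and 2 rose and 1 fell in KO CD8+ cells. Eef2, the translocase of the ribosome, had the largest rise past the threshold in both subsets, 0.58 (adjusted p = 0.02) for CD4+ and 0.58 (adjusted p = 0.0058) for CD8+ cells. Eef1e1 fell by 0.41 (adjusted p = 0.0368) and by 0.55 (adjusted p = 0.0461). Among 13 other initiation factors, 2 rose and 1 fell in each subset. Eif4h had the largest rise (0.36 and 0.37 in CD4+ and CD8+), while Eif4a2, a helicase of the cap complex, fell by 1.39 (adjusted p = 0.000594) and by 1.58 (adjusted p = 0.000654).

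Mitochondrial ribosomal proteins, which form a separate ribosome, had medians nearer to that of all genes. In KO CD4+ cells 10 of 77 rose and 0 fell (median 0.11), where 8.59% of all genes rose and 9.77% fell. In KO CD8+ cells 11 rose and 3 fell (median 0.06), and the 14.3% that rose were near the 12.6% of all genes. In WT CD4+ over WT CD8+ cells 4 were higher and 17 were lower, where 22.3% and 22.2% of all genes were, with a median of -0.07. Mrpl27 (0.54, adjusted p = 0.0164) rose most in KO CD4+ and Mrpl9 (0.46, adjusted p = 0.0186) in KO CD8+ cells.

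The Snhg genes are mostly non-coding hosts of small nucleolar RNAs. Of 9 host genes in the list, 1 rose and 1 fell in KO CD4+ cells, and 1 rose and 4 fell in KO CD8+ cells (median -0.73). Snhg4 rose in both, by 1.31 (adjusted p = 0.0134) and 1.04 (adjusted p = 0.039), and Snhg12 fell by 1.36 in CD8+ cells (adjusted p = 0.0286). In WT CD4+ over WT CD8+ cells 6 of 9 were lower and 0 were higher, with Snhg5 the lowest (-0.83, adjusted p = 0.00294). Of 15 genes of TOP control and mTORC1, 1 rose in KO CD4+ (Eif4ebp2, 0.43, adjusted p = 0.037), and 2 rose and 2 fell in KO CD8+ cells. Rptor, the mTORC1 scaffold, rose by 0.59 (adjusted p = 0.00358), and Rps6kb2, an S6 kinase, fell by 0.76 (adjusted p = 0.00337). Of 20 chaperones and assembly factors of ribosomal proteins, 2 rose in KO CD4+ and 6 in KO CD8+ cells, with Tsr3 (0.36, adjusted p = 0.0398) and Zfp622 (0.42, adjusted p = 0.0102) the largest.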

How the data were processed

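Poly(A) RNA of 20 libraries of sorted cells was sequenced from strand-specific libraries. The submitters' processing notes name STAR 2.7.2b, DESeq2 and mm10 (GRCm38). The deposited signal is the number of reads per gene that the authors divided by one size factor per library; whole reads were recovered for 100% of values (relative tolerance 1e-06), and the factors matched DESeq2 size factors within a relative 4.2e-15. At 37547651 reads or more on genes per library, counting error of the abundant members is small, and the 4 libraries per group set the precision.

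Differences were tested with limma 3.58.1 (R 4.3.3; lmFit, eBayes with trend, 2-sided) on log2(normalized count + 1); genes entered a fit when their mean over the libraries compared reached 10. Fold changes are on this scale, and p-values were Benjamini-Hochberg adjusted over all genes tested, with a threshold of 0.05. Only the groups compared entered a fit. The members, lists and tests were chosen with earlier results of these data known. Labels do not say that libraries are separate animals, so p-values measure the spread between these libraries. Alternatives were a pseudocount of 10, no filter, quantile and 75th percentile scaling, size factors without the members, edgeR 4.0.16 and DESeq2 1.42.0 on the recovered reads, a joint fit, a block for the replicate number, and leaving out single libraries. A joint fit of 19 libraries without KO DP replicate 3 was added after seeing the data.

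Deviations of equal replicate numbers correlated at r = 0.271 to 0.538 within KO and 0.120 to 0.196 within WT, so the numbers pair libraries within a genotype. Named were the stalk genes, paralogs with their parents, 8 genes with other known roles, the 5 largest called rises and falls (mean 50 or more), the 3 highest and lowest members, those nearest to the minimum, those most unlike the median in KO and WT, and the extremes of each list. The fits were tested on simulated data. Exon lengths, positions and promoter windows are RefSeq's for GRCm38.p6. Counts cover all 73 members, but single values of some genes are not reported here, and 71 members are shown by name in figures. Lists and motifs were counted with Python 3.11.15.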

Additional observations from a re-analysis of the deposited data

Results flagged for a closer look

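A value was noted where a library lay far from the other 3 of its group, beyond Dixon's 95% critical value. Of 140 groups of 4 values looked at for the named genes and 2 summed measures, 20 passed; chance gives about 1 in 20, and genes that move together are not independent. In KO DP replicate 3 the ratio of small subunit genes to large subunit and stalk genes was 0.716, against 0.612 to 0.624 in the other DP libraries.

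The other values of that library, as normalized counts with the range of the other 3 DP libraries, were as follows. For the stalk, Rplp0 had 362328 (176149 to 195518), Rplp1 had 193438 (68149 to 79621) and Rplp2 had 99778 (38573 to 45858). In the small subunit, Rps3 had 221122 (103628 to 114178), Rps14 had 228927 (68232 to 87107) and Rps19 had 101564 (35620 to 38690). Rps21 had 62619 (20742 to 24707), Rps25 had 72085 (26497 to 31900) and Rps27 had 282 (79.4 to 106). In the large subunit, Rpl5 had 190537 (83849 to 97613), Rpl11 had 126959 (51853 to 63560), Rpl13a had 313800 (138850 to 159601) and Rpl19 had 150661 (59029 to 67696). Rpl22 had 45844 (15613 to 20055), Rpl32 had 120815 (43977 to 55386) and Rpl41 had 109467 (49424 to 56588).

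The remaining values came from other libraries. Rpl32 was at 37042 in WT CD4+ replicate 3, above 33682 to 33810 in the others. Rpl34 was at 418 in KO CD4+ replicate 4, above 309 to 315. Rps3 was at 74220 in WT CD8+ replicate 2, below 79577 to 80670.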

How the results depend on the processing

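For KO against WT CD4+ cells (14 genes called) the count was 8 without the filter on low values, 0 with quantile or 75th percentile scaling, 22 with edgeR, 47 with DESeq2 and 0 with a joint fit of 20 libraries. It was 34 with a joint fit of 19 libraries, without KO DP replicate 3. Of all genes, 10.5% were called in the joint fit of 20 libraries and 20.7% in that of 19. Leaving out a library gave 0 to 66, where 5.08 to 23.8% of all genes were called, and medians of 0.22 to 0.43. The median was 0.13 with quantile scaling. For CD8+ cells (57 called) the count was 5 with quantile and 13 with 75th percentile scaling, 5 with the joint fit of 20 libraries, and 23 to 66 with a library left out. Of all genes, 23.1% and 23.8% were called with the 2 scalings, 16.3% in this joint fit and 13.2 to 33% with a library left out. The medians were 0.15 and 0.23 with the 2 scalings and 0.30 to 0.40 with a library left out. The joint fit of 20 libraries called 0 genes between WT subsets and 1 between KO DP and KO CD4+ cells, where it called 12.8% and 12.0% of all genes. Leaving out a library gave medians of 0.15 to 0.18 between WT subsets, 0.06 to 0.26 between KO subsets, 0.15 to 0.60 and -0.0049 to 0.44 for KO DP against KO CD8+ and KO CD4+ cells, and -0.09 to 0.12 for the interaction. The joint fits share one spread across groups, which KO DP replicate 3 widens; beyond this, the cause of these changes was not tested.

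Replicate numbers 2 and 3 occur in both genotypes but did not pair libraries across them (r = -0.00 to 0.10). With the number as a block, 0 members were called in either KO against WT comparison, with medians of 0.12 and 0.27. That fit rests on the 2 shared numbers, and it called 0.21% of all genes in CD4+ and 0.719% in CD8+ cells. Within KO the block raised the calls between CD4+ and CD8+ cells from 0 to 8, and it changed no other count by over 1.5 times.

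Of 73 values of named genes, under 1291 alternatives, 146 lost the threshold and 40 gained it. 9 changed sign, and the main value was not called in any of them. Rps27l in CD4+ cells had -0.030 with 75th percentile scaling and -0.022 (without KO CD4+ replicate 2) to 0.20 with a library left out. In CD8+ cells it had 0.19 with the replicate block and -0.11 to 0.037 with a library left out. Rps4l in CD8+ cells had -0.28 with the replicate block and -0.16 (without KO CD8+ replicate 4) to 1.27 with a library left out, and Rps27 had -0.010 (without WT CD8+ replicate 3) to 0.25 between WT subsets.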
